A study of Mus musculus with 23 samples.

Results

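The genes described here encode 10 proteins that coat, build or enlarge lipid droplets: the CIDE proteins Cidea and Cidec, the perilipins Plin1, Plin2, Plin3, Plin4 and Plin5, the fat storage-inducing transmembrane proteins Fitm1 and Fitm2, and seipin (Bscl2). They were taken by symbol from a fixed list, which was chosen with earlier results of these data known. All 10 were found among the 47311 genes in the files. RNA was sequenced from fat of the mammary fat pad lying next to a tumor in 23 female C57BL/6J mice, 1 library per mouse. Every mouse, controls included, carried a tumor grown from 250000 cells placed in mammary gland 4, of the luciferase-expressing mouse breast cancer line E0771. The 8 obese anti-PD-1 mice and the 5 obese IgG2a mice had food with 60% of its energy from fat between 8 and 26 weeks of age, while the 5 lean anti-PD-1 mice and the 5 lean IgG2a mice are labelled as given food with 10% of its energy from fat. The treatment text attached to each sample mentions the fat-rich food alone, so the ages of the lean mice rest on that text. Mice were injected with 200 µg of anti-PD-1, which blocks the checkpoint receptor PD-1 on T cells, or of the isotype control IgG2a from day 3 and then every 3 days until the mice were killed at 21 days. The tumor came from 1 transplanted cell line, so the 4 groups share that origin, and the labels name neither batches nor litters.

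Fat cells store triglyceride in lipid droplets, which have a neutral core and a shell of phospholipid and protein. Seipin, in the endoplasmic reticulum, helps nascent droplets grow, and the Fitm proteins act where droplets leave that membrane. Perilipins coat the droplet and control the access of lipases, and the CIDE proteins pass lipid between touching droplets so that a large one grows at the expense of a small one. In mice Cidec and Plin1 are typical of white fat, Cidea is typical of brown and beige fat, Plin2 and Plin3 occur in most tissues, Plin4 is found mainly in white fat, and Plin5 is found in tissues that burn fat, such as heart and brown fat.

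Each library held between 49438121 and 77369057 estimated counts. Libraries are named by group and number, and the numbers follow no pairing. All 14 adipocyte markers were detected in every library. They summed to 7114 to 75075 CPM (counts scaled to a common library total) in obese against 26636 to 54389 CPM in lean anti-PD-1 mice, and to 15382 to 49442 CPM in obese against 25938 to 72711 CPM in lean IgG2a mice. In obese mice 1 was higher and 4 were lower under anti-PD-1 (edgeR adjusted p under 0.05), against 5.2% and 4.85% of all genes. Under IgG2a 0 were higher and 5 were lower, against 2.68% and 3.12% of all genes. Their median log2 fold change was 0.03 under anti-PD-1 and -0.76 under IgG2a. Genes of B cells were high (a mean log2 CPM above 4 over 8 genes) in 2 of 8 obese against 3 of 5 lean anti-PD-1 libraries, and in 2 of 5 obese against 4 of 5 lean IgG2a libraries. Liver genes were high in obese IgG2a library 5 (9840 CPM summed over 11 genes), and skeletal muscle genes were high in lean anti-PD-1 libraries 1 and 2, obese IgG2a library 3 and lean IgG2a libraries 1 and 2. The fat cell hormone gene Adipoq differed between obese and lean mice by a log2 fold change of 0.21 under anti-PD-1 (SE 0.443, edgeR adjusted p = 0.853) and of -0.66 under IgG2a (SE 0.491, edgeR adjusted p = 0.535). Its lowest levels were 306 CPM in obese anti-PD-1 library 3 and 688 CPM in obese IgG2a library 3, both among the libraries with high B cell genes. The fat pad is a mixture of cells, so fewer cells of a type and less RNA per cell cannot be told apart.

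Measured per unit of transcript length (TPM, transcripts scaled to a common total per library), Cidec was the most abundant of the 10 genes in each group and Fitm1 the least. Cidec averaged 3126 ± 1617 TPM in obese anti-PD-1 (SD, n = 8), 936 ± 610.2 TPM in lean anti-PD-1, 1535 ± 1304 TPM in obese IgG2a and 1090.0 ± 506 TPM in lean IgG2a mice (SD, n = 5 each). Under both antibodies the order of the levels in obese mice differed from that in lean mice in the places of Cidea and Plin4. Under anti-PD-1 the order of Plin1 and Plin2 differed as well. Cidea held rank 4 in both lean groups, with mean levels of 323 ± 81.0 TPM under anti-PD-1 and 272 ± 161 TPM under IgG2a, and rank 9 in both obese groups, at 5.71 ± 2.12 TPM and 3.97 ± 2.46 TPM under the same antibodies. Plin4 held rank 3 in both obese groups, at 795 ± 417 TPM under anti-PD-1 and 414 ± 385 TPM under IgG2a, and rank 6 in both lean groups, at 95.0 ± 48.6 TPM and 104 ± 53.1 TPM. In obese mice the order was Cidec, Plin1, Plin4, Plin2, Bscl2, Fitm2, Plin3, Plin5, Cidea and Fitm1 under either antibody. Neighbours among Cidec, Plin1, Plin4 and Plin2, and the pair of Plin5 and Cidea, had mean levels closer than 1 SD in both obese groups. In lean IgG2a mice the order was Cidec, Plin1, Plin2, Cidea, Bscl2, Plin4, Fitm2, Plin3, Plin5 and Fitm1, and lean anti-PD-1 mice differed from it in having Plin2 before Plin1. There, too, Cidec, Plin1 and Plin2 followed each other within 1 SD, as did Cidea and Bscl2.

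**Figure D1:**
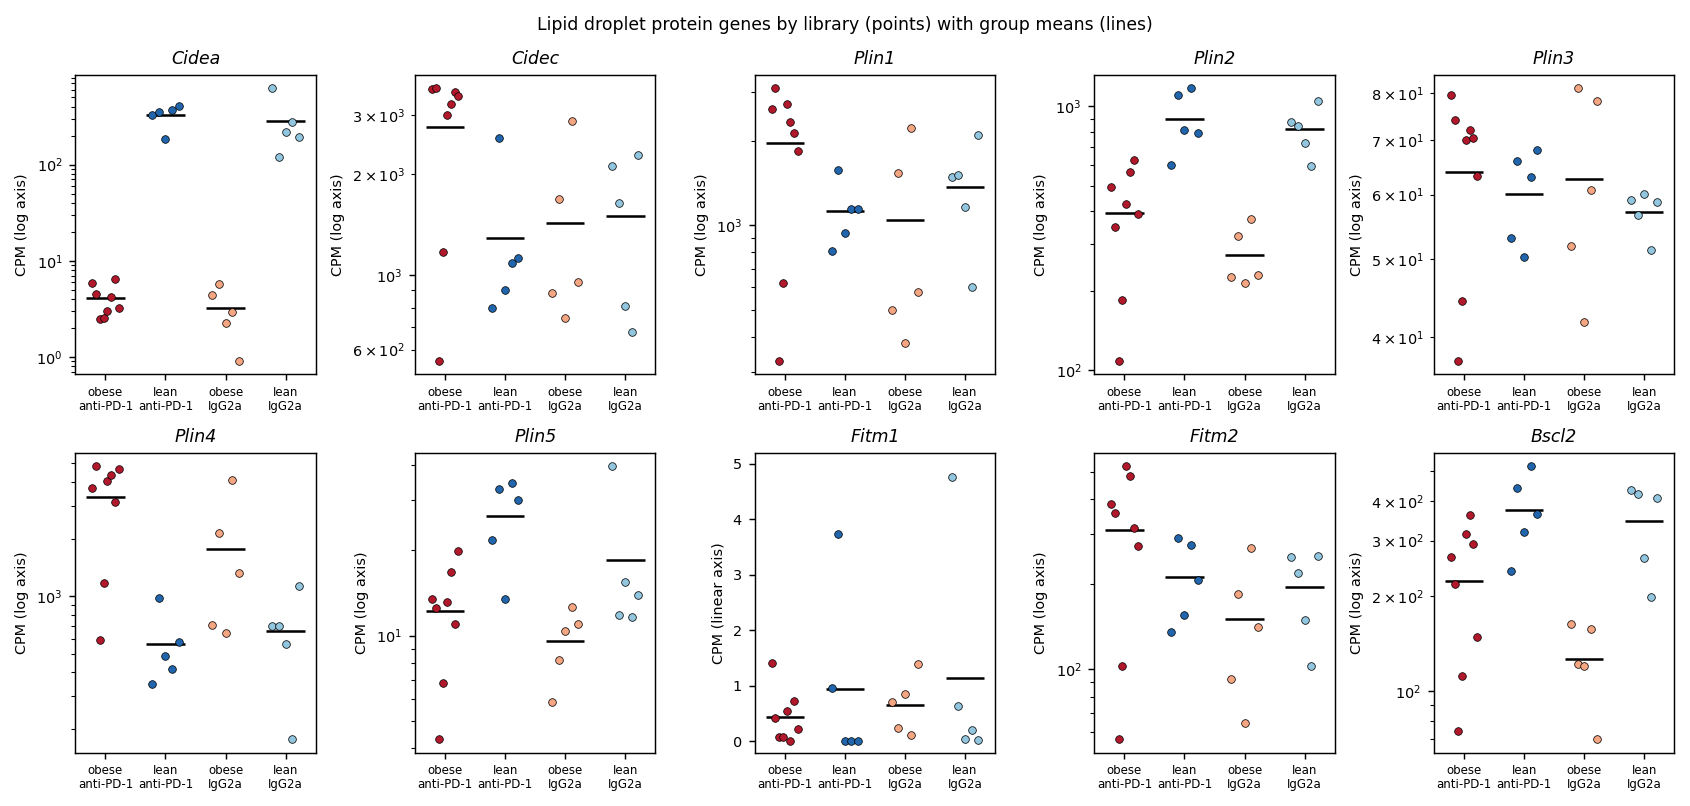
Level of each of the 10 genes in CPM (log axis, but a linear axis for Fitm1) in every library, by group, with points for libraries and lines for group means. Cidea lies between 0.915 and 6.53 CPM in the 13 obese libraries and between 119 and 623 CPM in the 10 lean libraries.

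Obesity was compared with leanness under each antibody, which asks how diet-induced obesity changes the droplet genes of the fat beside a tumor with and without checkpoint blockade. A gene is said to have risen or fallen where edgeR's quasi-likelihood test gave an adjusted p under 0.05 (Benjamini-Hochberg over the 19882 genes tested, two-sided). All 10 genes passed the filter on low counts. Under anti-PD-1, Plin4 rose and Cidea, Plin2 and Plin5 fell, which is 4 of 10 genes, against 10.1% of all genes tested (5.2% upward and 4.85% downward). Under IgG2a, Cidea, Plin2 and Bscl2 fell and none rose, which is 3 of 10 genes, against 5.79% of all genes tested (2.68% upward and 3.12% downward). An unadjusted p under 0.05 was found for 6 of the 10 under anti-PD-1 and for 5 under IgG2a. Of the 19882 genes tested, 4876 under anti-PD-1 and 3929 under IgG2a had such a p. The median log2 fold change of the 10 genes was -0.33 under anti-PD-1 and -0.59 under IgG2a, beside 0.08 and 0.12 over all genes tested. Cidea and Plin2 thus fell in both comparisons, which use different mice. Neither Cidec, Plin1, Plin3, Fitm1 nor Fitm2 passed in either comparison.

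**Figure D2:**
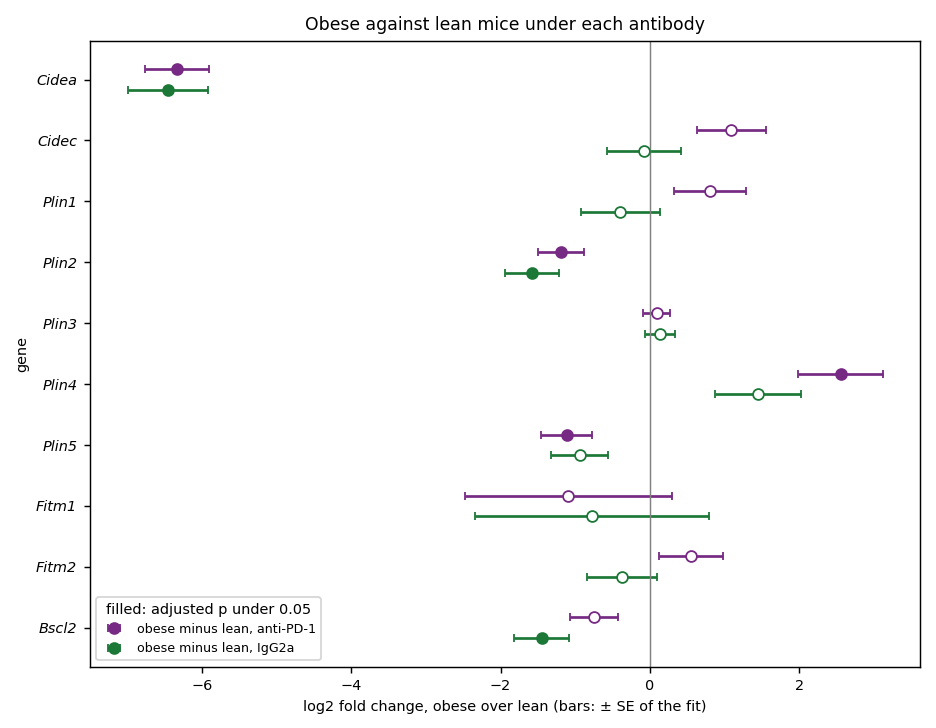
Log2 fold change of each gene between obese and lean mice (x axis) with the SE derived from the test as bars, under anti-PD-1 (upper point of each pair) and IgG2a (lower point), with filled points where the adjusted p is under 0.05. Cidea stands at -6.34 and -6.46 and Plin4 at 2.55 and 1.45, on opposite sides of 0.

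Promoter sequences, the 250 bases before and the 50 bases after a RefSeq transcription start (GRCm38.p6), were at hand for 9 of the 10 genes, without Cidea. They are shown for the perilipin that rose and for the genes that fell, so that the start regions of droplet genes moving in opposite directions can be read side by side. Capitals mark the E-box CACGTG, the nuclear receptor site AGGTCA, the CCAAT box and the TATAA box, searched on both strands. For Bscl2, which has several starts, the promoter at the start of Bscl2-201 is shown, and for Plin5 that of Plin5-201. Plin4 is chr17:56109733-56110032 (minus strand), Plin2 is chr4:86670010-86670309 (minus strand), Plin5 is chr17:56117499-56117798 (minus strand) and Bscl2 is chr19:8840253-8840552 (plus strand).
Plin4: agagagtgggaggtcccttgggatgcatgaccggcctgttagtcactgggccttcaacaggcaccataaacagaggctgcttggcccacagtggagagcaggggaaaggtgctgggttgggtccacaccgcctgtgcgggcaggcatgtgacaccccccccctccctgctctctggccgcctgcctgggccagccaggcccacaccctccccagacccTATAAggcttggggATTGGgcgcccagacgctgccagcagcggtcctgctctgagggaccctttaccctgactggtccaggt
Plin2: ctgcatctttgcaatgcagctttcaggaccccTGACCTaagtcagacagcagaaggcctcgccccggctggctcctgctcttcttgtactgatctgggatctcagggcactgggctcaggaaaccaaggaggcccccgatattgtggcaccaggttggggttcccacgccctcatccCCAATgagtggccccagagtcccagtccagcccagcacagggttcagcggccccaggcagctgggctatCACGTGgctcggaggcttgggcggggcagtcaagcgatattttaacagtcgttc
Plin5: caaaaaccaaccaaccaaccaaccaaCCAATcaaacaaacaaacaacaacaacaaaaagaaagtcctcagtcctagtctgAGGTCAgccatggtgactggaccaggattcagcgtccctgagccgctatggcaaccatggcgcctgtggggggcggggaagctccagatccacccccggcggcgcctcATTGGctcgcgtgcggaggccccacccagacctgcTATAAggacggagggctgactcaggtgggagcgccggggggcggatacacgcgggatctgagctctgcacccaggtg
Bscl2: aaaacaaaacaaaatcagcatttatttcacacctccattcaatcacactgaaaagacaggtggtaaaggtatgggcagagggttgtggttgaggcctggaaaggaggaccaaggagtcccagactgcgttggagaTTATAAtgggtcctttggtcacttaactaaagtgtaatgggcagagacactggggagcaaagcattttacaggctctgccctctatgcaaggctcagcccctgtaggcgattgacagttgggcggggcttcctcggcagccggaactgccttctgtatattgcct
The Plin4 promoter held a TATAA box starting at position -32 from the RefSeq start and a CCAAT box on the reverse strand at -18. Plin2 held no TATAA box and had the nuclear receptor site on the reverse strand at -218, a CCAAT box at -73 and an E-box at -4. Plin5 held a TATAA box at -27, a nuclear receptor site at -170 and a first CCAAT at -224, and the Bscl2 stretch held TATAA on both strands in overlapping letters from -115. Of the 32851 promoters in the table, 7.15% held the E-box, 16.3% the nuclear receptor site, 37.4% CCAAT and 24.9% TATAA, so single matches are common. The DR1 motif, a direct repeat of that site with 1 base between the copies, occurred in 0.0396% of promoters and in none of the 9 genes. Matches describe letters in these windows and are no evidence of binding.

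Among the CIDE genes, Cidea fell by 6.34 log2 units under anti-PD-1 and by 6.46 under IgG2a, while Cidec did not pass the test in either comparison. Cidea (ENSMUSG00000024526, GRCm38 chromosome 18, 67343604 to 67367785, plus strand) had a lowest level of 2.49, a median of 3.72 and a highest level of 6.53 CPM in the obese anti-PD-1 libraries, against 183, 324, 354, 369 and 411 CPM in the lean anti-PD-1 libraries. In the obese IgG2a libraries it had 0.915, 2.28, 2.94, 4.39 and 5.70 CPM, against 119, 192, 217, 279.6 and 623 CPM in the lean IgG2a libraries. Every obese library lay below every lean one. The fall was 80.9-fold under anti-PD-1 (SE 0.434 log2 units, edgeR adjusted p = 5.5e-09) and 88.1-fold under IgG2a (SE 0.537 log2 units, edgeR adjusted p = 1.5e-07). It was called under each alternative run, with values between -6.87 and -5.62 under anti-PD-1 and between -6.55 and -5.73 under IgG2a outside the leave-one-out fits. An antisense gene, B430212C06Rik, overlaps Cidea and reached 15.5 CPM at most in any library, and reads of the strands cannot be told apart in these non-directional libraries.

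Other genes of brown and beige fat cells were also lower in obese mice. The markers were Ucp1, Elovl3, Cox7a1, Cox8b, Ppargc1a, Dio2, Otop1, Fabp3, Cpt1b and Kng2. Of 10 such markers, 8 fell in each comparison, while 4.85% of all genes fell under anti-PD-1 and 3.12% under IgG2a. The summed level of the 10 was 15.1 to 57.4 CPM in obese anti-PD-1 against 235 to 550.1 CPM in lean anti-PD-1 libraries, and 18.9 to 37.7 CPM in obese IgG2a against 110.0 to 1358 CPM in lean IgG2a libraries. The highest sums, in lean anti-PD-1 library 2 and lean IgG2a library 1, were in libraries of high muscle genes, whose part was not tested. Ucp1, the uncoupling protein of brown fat, was at 0 counts in 1 of 8 obese anti-PD-1 and 2 of 5 obese IgG2a libraries and in no lean library. It reached 5.22 CPM in obese anti-PD-1 against 32.5 to 233 CPM in lean anti-PD-1 libraries. In IgG2a libraries it reached 0.694 CPM in obese mice, against 6.34 to 603 CPM in lean mice. Markers of mammary epithelium moved as well, with 11 of 12 lower under anti-PD-1 (333 to 1837 CPM summed in obese against 1316 to 4786 CPM in lean mice) and 4 of 12 lower under IgG2a (600.2 to 1021 CPM in obese against 1339 to 2466 CPM in lean mice), and no marker of that list was at 0. Of 7 sebaceous gland genes 5 were tested, 0 fell under anti-PD-1 and 1 fell under IgG2a, and the list summed to at most 24.5 CPM in any library. The part of these cell types in the fall of Cidea was not tested.

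Cidec (ENSMUSG00000030278, chromosome 6, 113424634 to 113435760, minus strand), which drives the growth of the single large droplet of white fat cells, had a lowest level of 556, a median of 3327 and a highest level of 3603 CPM in obese anti-PD-1 libraries, against 796, 905, 1089, 1123 and 2556 CPM in lean anti-PD-1 libraries. In obese IgG2a libraries it had 745, 884, 954, 1687 and 2874 CPM, against 676, 807, 1644, 2116 and 2274 CPM in lean IgG2a libraries. The groups overlapped in both comparisons. The log2 fold change was 1.09 under anti-PD-1 (SE 0.466, edgeR adjusted p = 0.142) and -0.07 under IgG2a (SE 0.497, edgeR adjusted p = 0.972). With a score of the 14 adipocyte markers as a covariate the values were 1.15 (edgeR adjusted p = 2.4e-04) and 0.93 (edgeR adjusted p = 0.0116), so under IgG2a the sign turned and the call was made. Some of those markers were themselves lower in obese mice, 4 under anti-PD-1 (where 1 was higher) and 5 under IgG2a. Values with this covariate, here and below, are thus not a correction for fat cell content alone. Within a library, Cidea made up 0.123% to 0.694% of the summed TPM of Cidea and Cidec in obese anti-PD-1 against 15.9% to 36.1% in lean anti-PD-1 mice, and 0.118% to 0.773% in obese IgG2a against 8.54% to 36.9% in lean IgG2a mice. Of the transcripts of this pair, those of obese mice were thus almost all Cidec. The third CIDE gene, Cideb, typical of liver, is not in that sum and was not called. It had 0 to 0.709 CPM in obese against 0.105 to 1.99 CPM in lean anti-PD-1 mice, and 0 to 16.8 CPM (median 0.0934) in obese against 0.573 to 1.60 CPM in lean IgG2a mice, and it was named after its values were seen.

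The perilipins moved in different directions. Plin4 (ENSMUSG00000002831, chromosome 17, 56100591 to 56109803, minus strand), which coats droplets through a long run of amphipathic repeats, had a lowest level of 592, a median of 3868 and a highest level of 4821 CPM in obese anti-PD-1 libraries, against 347, 418, 489, 579 and 986 CPM in lean anti-PD-1 libraries. In obese IgG2a libraries it had 639.5, 706, 1330, 2155 and 4100.5 CPM, against 178, 565, 699.9, 700.5 and 1131 CPM in lean IgG2a libraries. Of the 8 obese anti-PD-1 libraries only library 3, at 592 CPM, lay inside the lean range, and in the IgG2a pair the groups overlapped more widely. Hdgfl2, which overlaps Plin4 on the other strand, had 12.5 to 54.9 CPM over all libraries. Plin4 rose 5.88-fold under anti-PD-1 (log2 fold change 2.55, SE 0.564, edgeR adjusted p = 0.00612). Under IgG2a the log2 fold change was 1.45 (SE 0.571, edgeR adjusted p = 0.144), and DESeq2 called it (1.46, adjusted p = 0.0483). With the adipocyte score as a covariate the values were 2.59 (edgeR adjusted p = 1.5e-06) under anti-PD-1 and 2.48 (edgeR adjusted p = 2.9e-05) under IgG2a. Within the libraries of high B cell genes (2 obese and 3 lean) the value under anti-PD-1 was 0.94 (edgeR adjusted p = 0.307), and within those of low B cell genes (6 obese and 2 lean) it was 2.47 (edgeR adjusted p = 0.00683). The value under IgG2a within the libraries of high B cell genes (2 obese and 4 lean) was 0.30 (edgeR adjusted p = 0.711), and within those of low B cell genes, with 3 obese libraries and a single lean one, it was 1.10 (edgeR adjusted p = 0.429).

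Plin1 (ENSMUSG00000030546, chromosome 7, 79720218 to 79732903, minus strand), the perilipin that holds back and then recruits lipases in fat cells, did not pass the test. It had a lowest level of 329, a median of 2240.05 and a highest level of 3094 CPM in obese anti-PD-1 libraries, against 808, 939, 1143, 1149 and 1574 CPM in lean anti-PD-1 libraries. In obese IgG2a libraries it had 379, 497, 576, 1544 and 2224 CPM, against 601, 1167, 1485, 1509 and 2109 CPM in lean IgG2a libraries. The obese libraries of both antibodies spread over a wider range than the lean ones. The log2 fold change was 0.81 under anti-PD-1 (SE 0.487, edgeR adjusted p = 0.333) and -0.40 under IgG2a (SE 0.527, edgeR adjusted p = 0.789). With the adipocyte score as a covariate Plin1 was called higher under anti-PD-1 (0.78, edgeR adjusted p = 0.00491), and the value under IgG2a was 0.54 (edgeR adjusted p = 0.109). Within the libraries of high B cell genes it was -0.98 under anti-PD-1 (edgeR adjusted p = 0.228) and was called lower under IgG2a (-1.47, edgeR adjusted p = 0.0426).

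The ratio of Plin4 to Plin1 within a library does not depend on the scaling between libraries, and it separated obese from lean mice. It was chosen after the values were seen and is given without a test. The ratio of the TPM values had a lowest value of 0.407, a median of 0.500 and a highest value of 0.822 in obese anti-PD-1 libraries, against 0.110 to 0.194 in lean anti-PD-1 libraries. It was 0.431 to 0.711 in obese IgG2a libraries, against 0.101 to 0.172 in lean IgG2a libraries. The groups did not overlap in either pair. The 4 obese libraries with high B cell genes, which held little Plin1 and Plin4, had ratios of 0.610 and 0.688 under anti-PD-1 and of 0.493 and 0.582 under IgG2a, and thus lay with the other obese libraries. The ratio of Plin4 to Adipoq separated the groups too, at 0.126 to 0.314 in obese against 0.0327 to 0.0562 in lean anti-PD-1 mice, and at 0.110 to 0.195 in obese against 0.0267 to 0.0624 in lean IgG2a mice.

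**Figure D3:**
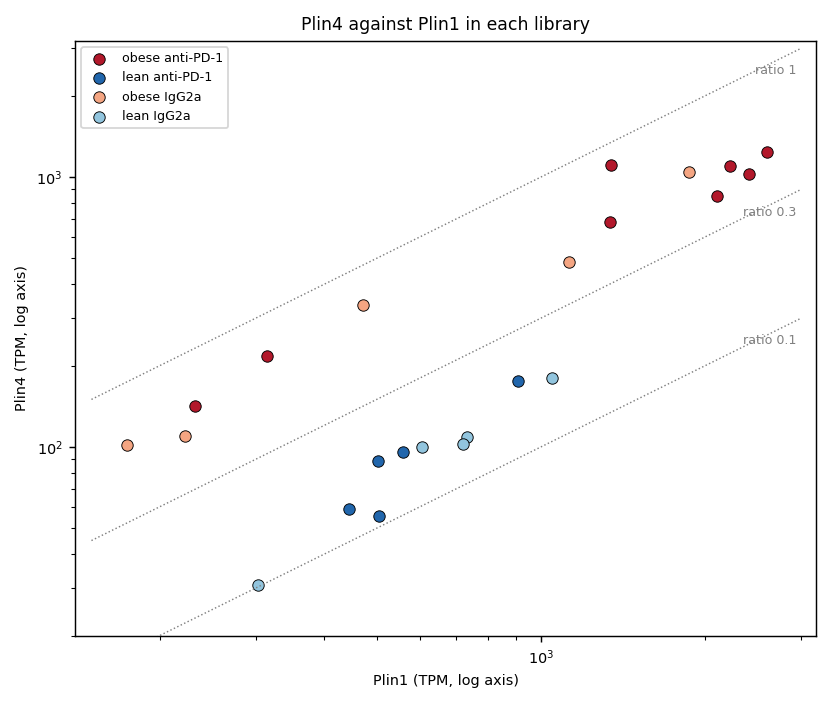
Plin4 against Plin1 in TPM (both axes log) with 1 point per library, coloured by group, and dotted lines for equal ratios. All 13 obese libraries lie above a ratio of 0.4 and all 10 lean libraries below 0.2, at high and at low Plin1 alike.

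Plin2 (ENSMUSG00000028494, chromosome 4, 86648386 to 86670060, minus strand), the widely expressed perilipin of small droplets, fell under both antibodies. It had a lowest level of 109, a median of 408 and a highest level of 628 CPM in obese anti-PD-1 libraries, against 598, 797, 813, 1102 and 1174 CPM in lean anti-PD-1 libraries. In obese IgG2a libraries it had 215, 225, 229, 324 and 375 CPM, against 595, 725, 846, 875 and 1049.9 CPM in lean IgG2a libraries. Under anti-PD-1 only obese library 7 reached the lean range, and under IgG2a the groups did not overlap. The log2 fold change was -1.19 under anti-PD-1 (SE 0.308, edgeR adjusted p = 0.0169) and -1.58 under IgG2a (SE 0.356, edgeR adjusted p = 0.0107). The call under anti-PD-1 ended on log2(TPM + 1) values with limma (-0.65, adjusted p = 0.230), with only the groups compared in the fit (-1.19, edgeR adjusted p = 0.0521), without lean anti-PD-1 library 4 (-1.04, edgeR adjusted p = 0.0629) and without the 5 libraries of high muscle genes (-1.25, edgeR adjusted p = 0.0786). Of 12 macrophage genes, whose cells also make Plin2, 3 rose and 0 fell under anti-PD-1 (339 to 800.1 CPM summed in obese against 318 to 456 CPM in lean mice) and 5 rose and 0 fell under IgG2a (539.7 to 924 CPM in obese against 351 to 489.96 CPM in lean mice), and their part was not tested. Of all genes, 5.2% rose under anti-PD-1 and 2.68% under IgG2a. The call under IgG2a ended on log2(TPM + 1) values with limma (-1.09, adjusted p = 0.137) and without the 5 libraries of high muscle genes (-1.46, edgeR adjusted p = 0.175).

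Of the summed TPM of the 5 perilipins, Plin4 made up 23.3% to 37.4% in obese anti-PD-1 against 4.17% to 8.74% in lean anti-PD-1 mice, and 19.4% to 30.4% in obese IgG2a against 3.67% to 9.10% in lean IgG2a mice. Plin2 made up 9.96% to 26.8% in obese anti-PD-1 against 43.6% to 55.0% in lean anti-PD-1 mice, without overlap, and 13.3% to 38.0% in obese IgG2a against 36.3% to 56.3% in lean IgG2a mice, with overlap. The share of Plin1 overlapped in both pairs, at 43.0% to 59.9% in obese against 37.9% to 45.1% in lean anti-PD-1 mice and at 36.0% to 55.9% in obese against 36.2% to 52.8% in lean IgG2a mice. The coat genes of lean fat were thus mostly Plin1 and Plin2 transcripts, and those of obese fat Plin1, Plin4 and Plin2 transcripts. The summed level of the 5 genes overlapped, with 525 to 4340 TPM in obese anti-PD-1 against 1014 to 2013 TPM in lean anti-PD-1 mice, and with 484 to 3419 TPM in obese IgG2a against 837 to 1984 TPM in lean IgG2a mice.

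**Figure D4:**
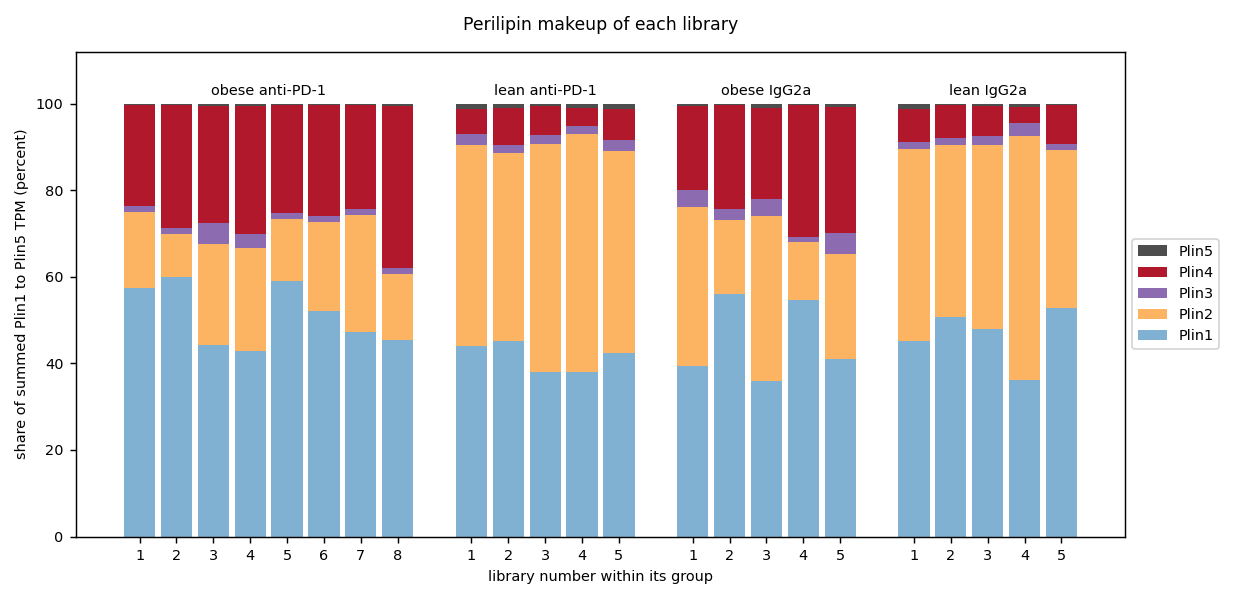
Share of each perilipin gene in the summed TPM of Plin1 to Plin5 (y axis, percent), with 1 bar per library grouped by diet and antibody. The share of Plin4 is 19.4% or more in each obese library and 9.10% or less in each lean library. The share of Plin2 is 43.6% or more in each lean anti-PD-1 library and 26.8% or less in each obese anti-PD-1 library, and it overlaps between the IgG2a groups.

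Plin5 (ENSMUSG00000011305, chromosome 17, 56111601 to 56117596, minus strand), which ties droplets to mitochondria, fell under anti-PD-1. It had a lowest level of 4.32, a median of 12.8 and a highest level of 19.8 CPM in obese anti-PD-1 libraries, against 13.4, 21.8, 30.0, 33.0 and 34.4 CPM in lean anti-PD-1 libraries. In obese IgG2a libraries it had 5.83, 8.19, 10.4, 11.0 and 12.7 CPM, against 11.6, 11.8, 13.9, 15.4 and 39.5 CPM in lean IgG2a libraries. The groups overlapped in both pairs, and lean IgG2a library 1, at 39.5 CPM, stood apart. The log2 fold change was -1.12 under anti-PD-1 (SE 0.339, edgeR adjusted p = 0.0385) and -0.94 under IgG2a (SE 0.387, edgeR adjusted p = 0.163). Under anti-PD-1 the call ended when any of 6 libraries was left out, each by edgeR's test over all genes, namely obese 4 (edgeR adjusted p = 0.053), 5 (0.0558) and 7 (0.0521) and lean 2 (0.0938), 4 (0.117) and 5 (0.0839). It also ended without the filter on low counts (-1.07, edgeR adjusted p = 0.0598), on log2(TPM + 1) values (-0.60, limma adjusted p = 0.214) and within the libraries of high B cell genes (-1.92, edgeR adjusted p = 0.0989). Muscle also makes Plin5 in mice, and 9 of 13 muscle genes fell under anti-PD-1 and none under IgG2a (of all genes, 4.85% and 3.12% fell). The fall rests on lean anti-PD-1 libraries 1 and 2, since the summed level was 12.9 to 80.9 CPM (median 48.98) in obese anti-PD-1 libraries, against 1214 and 3666 CPM in those libraries and 3.82 to 7.94 CPM in the other 3 lean anti-PD-1 libraries. It was 7.73 to 451 CPM (median 21.1) in obese against 9.09 to 3923 CPM (median 31.4) in lean IgG2a libraries. Ckm, the creatine kinase of muscle, was at 0 counts in 2 of 8 obese anti-PD-1, 2 of 5 lean anti-PD-1 and 1 of 5 obese IgG2a libraries. Without the 5 libraries of high muscle genes the Plin5 value under anti-PD-1 was -1.10 (edgeR adjusted p = 0.103), and with a muscle score as a covariate it was -0.99 (edgeR adjusted p = 0.0883).

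Plin3 (ENSMUSG00000024197, chromosome 17, 56277476 to 56292873, minus strand), a perilipin that cycles between cytosol and droplet, varied least of the 10 genes, with an SD of 0.298 log2 CPM units over the 23 libraries, against 3.30 for Cidea. It had a lowest level of 37.4, a median of 70.3 and a highest level of 79.6 CPM in obese anti-PD-1 libraries, against 50.2 to 68.0 CPM in lean anti-PD-1 libraries, and 41.8 to 81.2 CPM in obese IgG2a against 51.2 to 60.1 CPM in lean IgG2a libraries. The log2 fold change was 0.09 under anti-PD-1 (SE 0.182, edgeR adjusted p = 0.848) and 0.14 under IgG2a (SE 0.202, edgeR adjusted p = 0.823).

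Seipin fell under IgG2a, and the Fitm genes did not pass the test. Bscl2 (ENSMUSG00000071657, chromosome 19, 8837467 to 8848683, plus strand) had a lowest level of 74.2, a median of 243 and a highest level of 361 CPM in obese anti-PD-1 libraries, against 239.6, 319, 364, 440.2 and 516 CPM in lean anti-PD-1 libraries. In obese IgG2a libraries it had 70.3, 119.9, 122, 157 and 163 CPM, against 198, 264, 410.2, 423 and 435 CPM in lean IgG2a libraries. The groups overlapped under anti-PD-1 and not under IgG2a. Bscl2 fell by 1.45 log2 units under IgG2a (SE 0.367, edgeR adjusted p = 0.0219), and the value under anti-PD-1 was -0.75 (SE 0.320, edgeR adjusted p = 0.143). The call under IgG2a ended without obese library 5 (-1.27, adjusted p = 0.0689), lean library 1 (-1.36, 0.0644), lean library 2 (-1.35, 0.0622) or lean library 5 (-1.37, 0.0594), each by edgeR. It also ended on log2(TPM + 1) values (-1.07, limma adjusted p = 0.115), with a muscle score (-1.40, edgeR adjusted p = 0.0705) or adipocyte score (-0.74, edgeR adjusted p = 0.062) as a covariate and without the 5 libraries of high muscle genes (-1.19, edgeR adjusted p = 0.263), while under anti-PD-1 the adipocyte score (-0.71, edgeR adjusted p = 0.0152) and the libraries of high B cell genes (-1.68, edgeR adjusted p = 0.0356) gave a call. Gng3, which overlaps Bscl2 on the other strand, reached 2.57 CPM at most. AC129217.1, which overlaps Bscl2 on the same strand, is not among the genes in the files.

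Fitm2 (ENSMUSG00000048486, chromosome 2, 163466379 to 163472629, minus strand), the form found in fat, had a lowest level of 56.7, a median of 337 and a highest level of 522 CPM in obese anti-PD-1 libraries, against 136 to 292 CPM in lean anti-PD-1 libraries, and 64.6 to 269 CPM in obese IgG2a against 103 to 252 CPM in lean IgG2a libraries. Its log2 fold change was 0.55 under anti-PD-1 (SE 0.427, edgeR adjusted p = 0.486) and -0.37 under IgG2a (SE 0.466, edgeR adjusted p = 0.771). Fitm1 (ENSMUSG00000022215, chromosome 14, 55575617 to 55576954, plus strand), the form typical of skeletal muscle, was close to the limit of detection. It had 0 to 1.42 CPM in obese anti-PD-1 against 0, 0, 0, 0.961 and 3.74 CPM in lean anti-PD-1 libraries, and 0.112 to 1.39 CPM in obese IgG2a against 0.0296 to 4.77 CPM in lean IgG2a libraries. The count of 0 in 1 obese and 3 lean anti-PD-1 libraries allows up to 3 counts, or 0.0581 CPM in the obese one and 0.0452 to 0.0575 CPM in the lean ones. The highest values, 3.74 CPM in lean anti-PD-1 library 2 and 4.77 CPM in lean IgG2a library 1, were in libraries of high muscle genes. The log2 fold change was -1.09 under anti-PD-1 (SE 1.39, edgeR adjusted p = 0.719) and -0.78 under IgG2a (SE 1.57, edgeR adjusted p = 0.886), and without the 5 libraries of high muscle genes the value under anti-PD-1 was 7.77 (edgeR adjusted p = 0.0489). The 3 lean anti-PD-1 libraries left in that fit were all at 0 counts, so the value depends on the prior count and gives no fold. Antisense genes overlap Fitm1 (Gm15932, at most 0.882 CPM) and Fitm2 (2310001K24Rik, at most 3.39 CPM).

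Anti-PD-1 was compared with IgG2a within obese and within lean mice to ask whether checkpoint blockade changes these genes, and none of the 10 passed edgeR's test in either. In obese mice 0 of 10 genes passed, against 0.538% of all genes tested (0.00503% upward and 0.533% downward). DESeq2 called 0 of the 10 and 399 of all genes. Of all genes, 2700 had an unadjusted p under 0.05, and so did 2 of the 10. Those 2 genes were Bscl2 (log2 fold change 0.82, SE 0.334, edgeR adjusted p = 0.280) and Fitm2 (1.05, SE 0.435, edgeR adjusted p = 0.290). Cidec (0.95), Plin1 (0.91) and Plin4 (0.89) had log2 fold changes of similar size, and the median over the 10 genes was 0.67, beside -0.00 over all genes. The 14 adipocyte markers had a median of 0.72 with none called, and summed to a median of 62730 CPM in obese anti-PD-1 against 23748 CPM in obese IgG2a libraries. With their score as a covariate the values were 0.28 for Cidec, 0.25 for Plin1, 0.23 for Plin4, 0.33 for Fitm2 and 0.31 for Bscl2. Libraries with high B cell genes were 2 of 8 in obese anti-PD-1 mice against 2 of 5 in obese IgG2a mice, and within them the values were 0.13 for Cidec, 0.16 for Plin1, 0.43 for Plin4, 0.065 for Fitm2 and -0.56 for Bscl2. Under other alternatives, leave-one-out fits apart, values reached 1.13 for Cidec, 1.18 for Plin1, 1.16 for Plin4, 1.10 for Fitm2 and 1.16 for Bscl2. In lean mice 0 of 10 genes passed, against 0% of all genes, with 0 at an unadjusted p under 0.05 and 0 called by DESeq2 (of all genes, 472 had an unadjusted p under 0.05 and DESeq2 called 22), and the log2 fold changes of the 10 genes lay between -0.29 for Plin1 and 0.52 for Plin5. The comparisons of diet and of antibody share libraries, so their values are not independent.

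The difference between the obesity effects under the antibodies was tested as an interaction. None of the 10 genes passed edgeR's test, against 0% of all genes, with 0 of the 10 at an unadjusted p under 0.05 and 0 called by DESeq2 (of all genes, 1449 had an unadjusted p under 0.05 and DESeq2 called 50). Plin4, called under anti-PD-1 and not under IgG2a, had an interaction of 1.11 log2 units (SE 0.760, edgeR adjusted p = 0.777). For Plin5 it was -0.18 (SE 0.516, edgeR adjusted p = 0.980) and for Bscl2 0.70 (SE 0.487, edgeR adjusted p = 0.780), so the calls made under a single antibody were not shown to differ between antibodies. The interactions of the other genes lay between -0.32 for Fitm1 and 1.20 for Plin1, with 0.12 for Cidea (SE 0.572, edgeR adjusted p = 0.989).

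Shares of transcripts rest on reads that transcripts have in common. Cidec and Plin1 were split between several transcripts, with 37.1% to 67.05% of the Cidec TPM in Cidec-202 and 19.9% to 51.4% in Cidec-201, and 37.3% to 71.5% of the Plin1 TPM in Plin1-206, over all libraries. Cidea, Plin3, Fitm1 and Fitm2 had 1 listed transcript each. Plin4-202 held 97.7% to 99.0% of the Plin4 TPM in obese anti-PD-1 against 88.4% to 100% in lean anti-PD-1 mice, and 97.9% to 100% in obese IgG2a against 85.8% to 98.4% in lean IgG2a mice. Plin2-201, a coding transcript, held 41.4% to 63.7% of the Plin2 TPM in obese anti-PD-1 against 62.7% to 67.8% in lean anti-PD-1 mice, and 44.0% to 62.3% in obese IgG2a against 60.3% to 71.9% in lean IgG2a mice. Plin2-208, annotated as a processed transcript without a coding region, held 21.1% to 32.7% in obese anti-PD-1 against 15.1% to 20.2% in lean anti-PD-1 mice, and 22.2% to 33.5% in obese IgG2a against 16.0% to 22.2% in lean IgG2a mice. The Plin2-208 shares of obese mice lay above those of lean mice without overlap in both pairs, though under IgG2a the lowest obese share was 22.21% and the highest lean share 22.18%. Bscl2-201 held 74.9% to 90.5% in obese anti-PD-1 against 89.9% to 93.6% in lean anti-PD-1 mice, and 76.6% to 88.0% in obese IgG2a against 89.7% to 93.4% in lean IgG2a mice. Plin5-201 and Plin5-202, which start at different first exons, split the Plin5 TPM so unevenly between libraries (Plin5-201 held 0% to 100%) that their shares were not compared.

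Other genes of lipid droplets were taken from a list of 22, all of which were tested. Under anti-PD-1, 0 rose and 1 fell (of all genes, 5.2% rose and 4.85% fell), with a median log2 fold change of 0.09. That gene was Acsl3, which activates fatty acids on nascent droplets, and it fell by 1.17 log2 units (SE 0.280, edgeR adjusted p = 0.0106), with 10.8 to 22.3 CPM in obese against 24.2 to 51.6 CPM in lean anti-PD-1 libraries. Under IgG2a, 1 rose and 2 fell (of all genes, 2.68% rose and 3.12% fell), with a median of -0.31. Pnpla3, a lipase-like droplet protein, fell by 3.11 (SE 0.586, edgeR adjusted p = 0.00287), with 20.1 to 120 CPM in obese against 327 to 939.8 CPM in lean IgG2a libraries. Dgat1, which makes triglyceride, fell by 1.70 (SE 0.389, edgeR adjusted p = 0.0116). Hsd17b13, a droplet protein of liver, rose by 7.37 (SE 2.11, edgeR adjusted p = 0.0398), but its level reached 25.1 CPM in obese IgG2a library 5, which also held liver genes, and its median in obese IgG2a libraries was 0.427 CPM. Under the other antibody Acsl3 had -1.07 (edgeR adjusted p = 0.0502) and Pnpla3 -1.42 (edgeR adjusted p = 0.0609). Dgat1 had -0.55 (edgeR adjusted p = 0.345) there and Hsd17b13 -0.89 (edgeR adjusted p = 0.802). Their interactions did not pass (edgeR adjusted p = 0.986, 0.661, 0.668 and 0.404 in that order). These calls were thus not shown to differ between antibodies.

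The genes whose pattern was most like that of a member were found by the root mean square difference of centred log2 CPM over the 23 libraries, for members with an SD of at least 1 and among genes of at least 1 CPM. For Cidea (SD 3.30) they were Atp4b at 0.844, Thrsp at 0.969 and Elovl6 at 1.14, with Atp4b at a mean of 1.09 CPM, close to that limit. For Plin4 (SD 1.41) they were Map9 at 0.292, Fzd4 at 0.340 and Svep1 at 0.344. The distance is not scaled to the SD of a member, so distances of different members cannot be compared. For Fitm1 (SD 2.21) they were Neb at 1.54, Myom1 at 1.60 and Ank1 at 1.62. All genes of a library share its depth, diet and cell makeup, and these distances are descriptions without a test.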

How the data were processed

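RNA was sequenced from poly(A), non-directional libraries, per the labels' protocols. The authors' deposited tables give estimated counts and TPM for 115088 Ensembl transcripts per library; no quantifier is named there or in the labels, and the submitters' processing notes name edgeR, limma and GRCm38 without versions. Transcripts were summed to genes with GENCODE M21 (114200 matched) and estimated counts rounded. edgeR 4.0.16 (R 4.3.3; filterByExpr with a minimum count of 10, TMM, robust quasi-likelihood fit, 1 mean per group over all 23 libraries) tested 19882 genes in 5 comparisons, with Benjamini-Hochberg adjustment over all of them. CPM used TMM-scaled totals. Each SE of an edgeR value was derived from its test, as the absolute log2 fold change over the square root of the quasi-likelihood F. The labels give no batch and no replicate numbers, so replicates were numbered in accession order. P-values measure the spread between these mice. Alternatives were DESeq2 1.42.0, limma 3.58.1 on log2(TPM + 1), other filters and scaling, covariates for muscle or adipocyte genes, subsets and leaving out each library. The members and all gene lists were chosen with earlier results of these data known. All 10 members are named in each comparison, with the called genes of the list of other droplet genes (up to 3 per direction). The fit was tested on simulated data. Intervals and floors cover counting error only.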

Additional observations from a re-analysis of the deposited data

Results flagged for a closer look

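In 4 of the 40 combinations of gene and group examined, 1 library stood further from the others than Dixon's 95% limit for its group, where chance gives about 1 in 20. Cidec had 2555.7 CPM in lean anti-PD-1 library 2, against 796.4 to 1123.2 CPM in the other 4. Plin5 had 39.548 CPM in lean IgG2a library 1, against 11.606 to 15.441 CPM in the other 4. Fitm1 had 3.7408 CPM in lean anti-PD-1 library 2, against 0 to 0.961 CPM in the others, and 4.7724 CPM in lean IgG2a library 1, against 0.0296 to 0.647 CPM in the others. Both libraries are among the 5 with high skeletal muscle genes, and the part of muscle in these values was not tested.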

How the results depend on the processing

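Cidea fell in both obesity comparisons under each alternative run and without each library. Otherwise calls shifted, and the cause was not tested. The 10 genes had 4 calls under anti-PD-1 and 3 under IgG2a. On log2(TPM + 1) values there were 2 and 1, without the 5 libraries of high muscle genes 1 under IgG2a, and with the adipocyte score 7 under anti-PD-1. Leaving out each library gave 2 to 4 and 2 to 3. On log2(TPM + 1) values with limma, which changes unit, pseudocount and test together, the median of all genes was 0.27, against 0.08, under anti-PD-1 and 0.19, against 0.12, under IgG2a. Fitm1 had 0 counts in 4 libraries, and the common biological coefficient of variation was 0.805. Subsets of low B cell genes hold a single lean IgG2a library, assumed to vary like the others, with 2 Fitm1 counts, so their values that use it show no loss or turn of a call. No paired analysis was possible because the labels give no replicate numbers.

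Other droplet genes had 1 call under anti-PD-1, with 4 by DESeq2, 2 with DESeq2 size factors, 2 with a filter of 1 CPM in 5 libraries, 0 without the high-muscle libraries, 10 with the adipocyte score, 5 and 2 within libraries of high and low B cell genes, and 1 to 4 without each library. Under IgG2a they had 3, with 5 by DESeq2, 0 without the high-muscle libraries, 5 with the adipocyte score and 9 within libraries of high B cell genes. Between antibodies in obese mice they had 0, with 3 by DESeq2, 2 within libraries of low B cell genes and 0 to 1 without each library.

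Of all genes, 1999 were called under anti-PD-1, with 574 within libraries of high B cell genes and 4260 with the adipocyte score as extremes. Under IgG2a 1152 were called, with 108 without the high-muscle libraries and 2090 by DESeq2 as extremes. Between antibodies in obese mice 107 were called, with 0 on log2(TPM + 1) values and 767 within libraries of low B cell genes as extremes.

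Signs turned only for values that had missed the threshold. For obesity under IgG2a, the log2 fold change of Cidec was 0.20 and of Fitm1 0.13 on log2(TPM + 1) values. With the muscle score they were 0.20 and 3.82. Without the high-muscle libraries Cidec was 0.33, Fitm1 2.71 and Fitm2 0.016. With the adipocyte score Cidec was 0.93, Plin1 0.54, Fitm1 0.74, Fitm2 0.57 and Adipoq 0.39. Within libraries of high B cell genes Plin3 was -0.30, and within those of low ones, against that single lean library, Fitm1 was 4.16. For obesity under anti-PD-1, Fitm1 was 4.24 with the muscle score and 7.77 without the high-muscle libraries. Within libraries of high B cell genes Cidec was -0.085, Plin1 -0.98, Plin3 -0.43, Fitm2 -1.01 and Adipoq -1.01.

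Between antibodies in obese mice, Plin3 was -0.096 without the high-muscle libraries and -0.078 within libraries of low B cell genes. With the adipocyte score Plin2 was -0.032, Plin3 -0.19, Plin5 -0.074 and Adipoq -0.24. Within libraries of high B cell genes Cidea was -0.36, Plin2 -0.54, Plin3 -0.14, Plin5 -0.49, Bscl2 -0.56 and Adipoq -0.32. In lean mice with the adipocyte score Cidec was 0.065, Plin1 0.011, Plin4 0.13 and Fitm1 0.0038. Within libraries of high B cell genes Cidea was -0.030, Plin2 -0.067, Plin3 -0.011, Fitm2 -0.14 and Bscl2 -0.12, and within those of low ones, against the same single library, Fitm1 was 5.88. The interaction of Plin3 was 0.12 on log2(TPM + 1) values, and that of Fitm1 was 0.42 with the muscle score. Without the high-muscle libraries that of Cidea was -0.29 and of Fitm1 5.05. With the adipocyte score it was -0.18 for Cidea, -0.29 for Plin2, -0.018 for Fitm2 and -0.18 for Adipoq. Within libraries of high B cell genes it was -0.33 for Cidea, -0.47 for Plin2 and -0.44 for Bscl2, and within those of low ones, with that single library, -0.45 for Cidea.

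Leaving out each library, sign turns gave these ranges. For obesity, Fitm1 was -1.68 to 0.87 under anti-PD-1 and -1.14 to 1.51 under IgG2a, and Cidec -0.46 to 0.14 under IgG2a. Between antibodies, Plin3 was -0.11 to 0.11 in obese mice, and in lean mice Bscl2 was -0.034 to 0.26, Fitm1 -2.24 to 2.05, Fitm2 -0.024 to 0.27 and Plin4 -0.52 to 0.052. The interaction was -0.40 to 0.37 for Cidea, -2.67 to 1.65 for Fitm1 and -0.19 to 0.037 for Plin3.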
